A study of Mus musculus with 10 samples.

Results

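The matrix metalloproteinases (MMPs), the ADAM and ADAMTS proteinases and their tissue inhibitors, the TIMPs, were followed across 4 cell populations sorted from mouse mammary tissue. Members were all genes whose single annotated symbol is Mmp, Timp, Adam or Adamts followed by a digit. They came to 54 of 12394 genes: 18 Mmp, 4 Timp, 25 Adam and 7 Adamts genes. RNA was measured on 10 single-colour Affymetrix arrays, each from 100 ng of total RNA. The tumour populations were CAF (cancer-associated fibroblasts, 3 arrays), CSC (cancer stem cells, 2 arrays) and TEC (2 arrays), and COF (3 arrays) came from control glands. All mice were FVB/N, and the control glands are labelled WT. The mice with tumours carry the genotype label WAPCre-DNbcatn;HGF, which names Cre driven by the WAP promoter of milk-producing epithelium, a beta-catenin construct and HGF, the ligand of the Met receptor. Ages, the sorting gates and whether arrays of a group came from different mice are not given in the sources used here, so p-values measure only the spread between these arrays. TEC is not spelled out in the labels, and on the TEC samples the field for the sorted cells reads TEFs.

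MMPs are zinc enzymes that cut collagens, laminins, proteoglycans and other matrix proteins, and they are made as inactive precursors that other proteinases activate. Most ADAMs sit in the cell membrane and release the outer part of growth factors, cytokines and receptors, whereas ADAMTS enzymes are secreted and many cut large proteoglycans. TIMPs bind the active site of these enzymes and block it. In the mammary gland they take part in duct branching and in regression of the gland after lactation, and in tumours much of the matrix-degrading set is known to be made by stromal cells.

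Values are log2 probe signals, and a fold is the ratio of signals on the linear scale. Each gene was read from 1 probe set, and since probes differ in brightness no gene's level was set against another's. The lower quartile of an array, between 5.05 and 5.26, served as a mark of dim signal. On all 10 arrays 12 members lay under it, 42 exceeded it on at least 1 array, and 30 exceeded it on all. The dim members were 7 of 13 ADAMs known mainly from testis or sperm, with Adam28, Adam11, Mmp1a, Mmp1b and Mmp20. A difference passed at an adjusted p under 0.05 in limma, fitted on all genes and all 10 arrays.

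Marker genes were read to check the labels. The 8 fibroblast markers had medians of 13.22 to 13.28 on the CAF arrays and of 13.27 to 13.32 on the COF arrays, but 9.05 and 8.92 in CSC, and 9.38 and 12.11 in TEC. TEC replicate 2 thus stood nearer to the fibroblast arrays in these genes than TEC replicate 1, with a median still below theirs. The 10 epithelial markers had medians of 7.44 to 7.65 in CAF, 6.17 to 6.73 in COF, 12.37 and 12.27 in CSC, and 9.66 and 10.41 in TEC. The median of 9 neutrophil markers was 9.10 and 7.77 in CSC and 13.53 and 12.93 in TEC, and the median of 7 leukocyte markers was 11.50 and 11.05 in CSC and 13.52 and 13.09 in TEC. The populations labelled CSC and TEC therefore carried RNA of epithelial and leukocyte genes together. In bulk samples, fewer cells of a type and less RNA per cell cannot be told apart.

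Of the 42 members above the dim mark, 19 had their highest group mean in CAF, 13 in COF, 3 in CSC and 7 in TEC. In 30 of the 42, both fibroblast means lay above the CSC and TEC means. Over all members, 31 of 54 (57.4%) had all 6 CAF and COF arrays above all 4 CSC and TEC arrays, against 25.4% of all genes. Of those 31, 5 were dim on every array. The 7 with the highest mean in TEC included Mmp8, Mmp9, Adam8 and Adam17, and the 3 with the highest mean in CSC were Mmp7, Adam10 and Timp4, the last of which passed in no comparison. By group means the set thus held a large block that was higher in both fibroblast populations, and few members were highest in TEC or in CSC. Some of those few led by little. Mmp19 had means of 10.49 in TEC, 10.46 in COF and 10.46 in CAF, and Mmp12 9.75 in TEC and 9.55 in CSC. Timp4 had 5.22 in CSC and 5.21 in CAF, and Adam10, at 10.93 in CSC and 10.74 in CAF, did not pass between those groups.

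**Figure D1:**
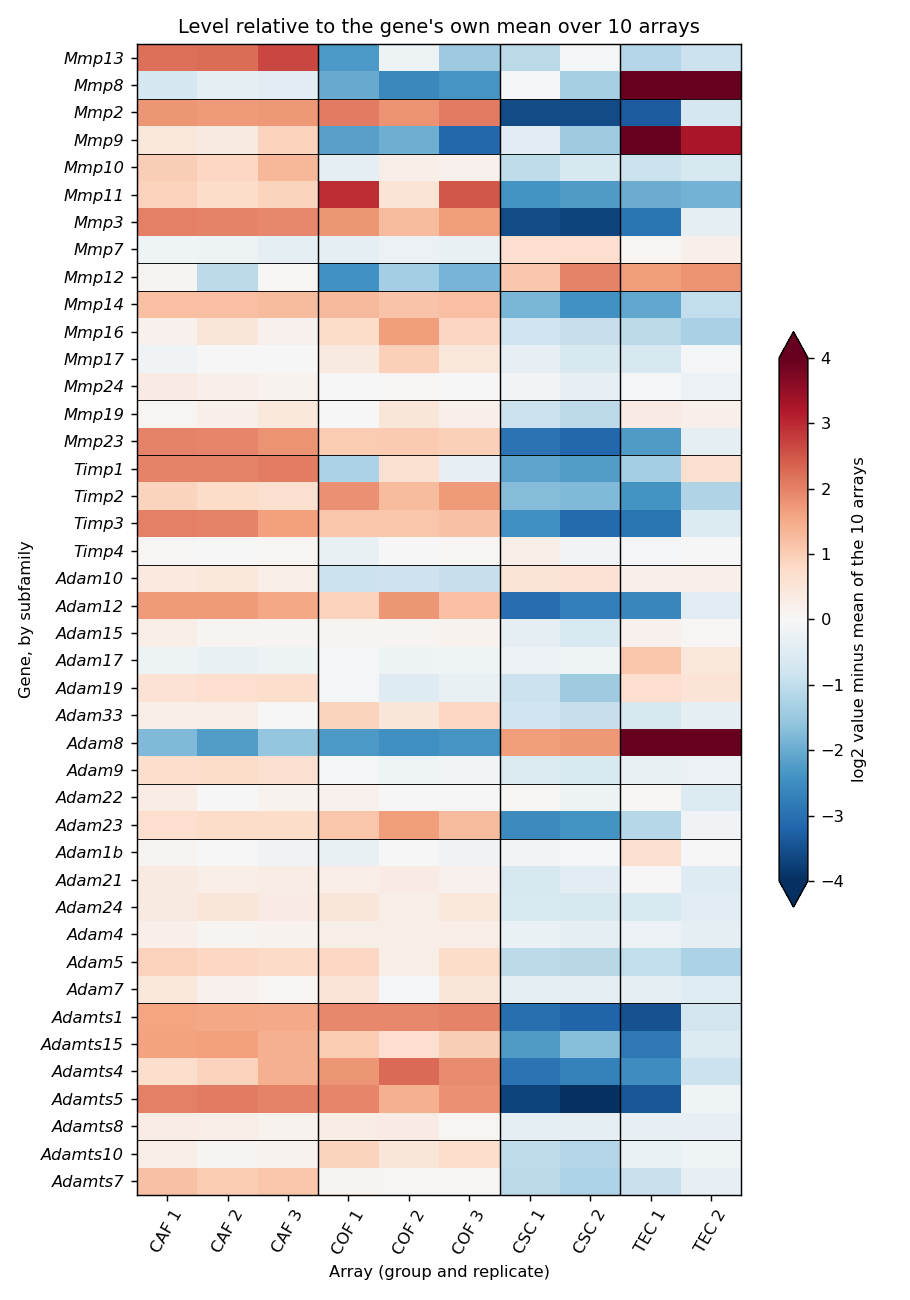
Heat map of the 42 members above the lower quartile of an array on at least 1 array, with arrays in columns and genes in rows; colour gives the log2 value minus the gene's own mean over 10 arrays, on a scale of -4 to 4. Most rows are high on the 6 CAF and COF arrays, and TEC replicate 2 is higher than TEC replicate 1 in rows such as Adamts5, Mmp2 and Mmp3.

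A run of 10 MMP genes lies on mouse chromosome 9 in the RefSeq annotation of GRCm38.p6, in the order Mmp13, Mmp12, Mmp1b, Mmp3, Mmp1a, Mmp10, Mmp8, Mmp27, Mmp20 and Mmp7, with 0 other protein-coding genes between them. All but Mmp27 were measured. The promoters of 4 are printed, chosen by their calls between CAF and COF: Mmp13, Mmp10 and Mmp8 passed and Mmp3 did not. Mmp3 was also higher on every CAF array, by 0.42 in the mean. It passed when CAF and COF were fitted alone (limma, adjusted p = 0.0355). Each is the 250 bases before the annotated start, plus strand, 5′ to 3′, from RefSeq promoters of GRCm38.p6. Capitals mark TGANTCA, the consensus of AP-1 (Fos and Jun), which is its own reverse complement.
Mmp13, chr9:7272264-7272513: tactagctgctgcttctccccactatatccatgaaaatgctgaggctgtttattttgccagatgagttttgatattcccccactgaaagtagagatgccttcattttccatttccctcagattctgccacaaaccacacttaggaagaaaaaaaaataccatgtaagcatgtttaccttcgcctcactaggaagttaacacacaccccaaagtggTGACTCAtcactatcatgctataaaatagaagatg
Mmp3, chr9:7445572-7445821: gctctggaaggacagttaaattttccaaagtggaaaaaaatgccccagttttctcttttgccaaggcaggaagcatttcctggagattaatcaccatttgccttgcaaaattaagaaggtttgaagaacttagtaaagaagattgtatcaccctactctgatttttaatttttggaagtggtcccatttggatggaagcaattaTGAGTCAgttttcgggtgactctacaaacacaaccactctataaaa
Mmp10, chr9:7502092-7502341: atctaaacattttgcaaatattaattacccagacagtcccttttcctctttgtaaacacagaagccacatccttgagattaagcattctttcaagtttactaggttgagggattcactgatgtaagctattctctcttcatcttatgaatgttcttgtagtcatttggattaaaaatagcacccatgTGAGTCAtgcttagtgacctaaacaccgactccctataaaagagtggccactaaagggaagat
Mmp8, chr9:7558179-7558428: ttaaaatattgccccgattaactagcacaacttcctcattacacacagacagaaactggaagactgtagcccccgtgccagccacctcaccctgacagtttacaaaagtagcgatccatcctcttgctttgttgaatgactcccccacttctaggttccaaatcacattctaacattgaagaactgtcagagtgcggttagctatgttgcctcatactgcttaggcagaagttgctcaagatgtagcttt

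The motif began 35 bases before the start of Mmp13 as TGACTCA, and as TGAGTCA 46 bases before that of Mmp3 and 63 bases before that of Mmp10. The Mmp8 window held none. In windows of 300 bases, 250 before and 50 after the start, 11 of the 30 members with a promoter in the table held TGANTCA (36.7%), against 8.97% of 27025 genes. Among MMP members it was 8 of 13, and those 8 (Mmp3, Mmp7, Mmp10, Mmp12, Mmp13, Mmp20, Mmp1a and Mmp1b) all lie in the chromosome 9 run and are related copies. Letters in a window are a description and do not show binding.

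Tumour fibroblasts, CAF, were first set against COF, the fibroblasts of normal glands. A small group of members passed as higher in CAF by at least 1. They were the collagenases Mmp13 and Mmp8, the gelatinase Mmp9, the metalloelastase Mmp12, the stromelysin Mmp10, Adam10, Adamts7 and the inhibitor Timp1. Mmp2, Mmp3 and Mmp14, known products of fibroblasts, did not pass. In all, 16 of 54 members passed (29.6%), against 34.8% of all genes. Of the members, 10 were higher in CAF (18.1% of all genes were) and 6 were lower (16.7% of all genes). The share of members that passed was thus near that of all genes. A difference of at least 1 that also passed was found in 8 members, all of them higher in CAF, against 8.31% of all genes. CAF and COF arrays did not overlap in 30 members, against 56.6% of all genes. The median difference was 0.11 over the members and 0.02 over all genes.

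Among collagenases and gelatinases 3 of 6 were higher in CAF (18.1% of all genes were) and 1 was lower (16.7% of all genes). Mmp13, collagenase-3, which cuts fibrillar collagen, read 10.23, 10.26 and 10.70 in CAF and 5.75, 7.83 and 6.58 in COF. Every CAF array was above every COF array, and the COF arrays were spread widely. The difference was 3.68 ± 0.47 (SE), or 12.8-fold (limma, adjusted p = 0.000465). Mmp9, gelatinase B, which cuts denatured collagen and basement membrane collagen, read 8.37, 8.24 and 8.82 in CAF and 5.74, 5.96 and 4.75 in COF. Its groups did not overlap, with a difference of 2.99 ± 0.37, or 7.96-fold (limma, adjusted p = 0.00042). Mmp8, the collagenase best known from neutrophil granules, read 6.27, 6.56 and 6.50 in CAF and 4.93, 4.38 and 4.60 in COF. All COF arrays lay below the dim mark and all CAF arrays above it, a difference of 1.81 ± 0.35, or 3.5-fold (limma, adjusted p = 0.0038). Mmp2, gelatinase A, known from fibroblasts, read 13.57, 13.51 and 13.54 in CAF and 13.89, 13.60 and 13.90 in COF. Those groups were close, at -0.26 with a 95% interval of -1.44 to 0.92 (limma, adjusted p = 0.766). The rodent relatives of human MMP1 were dim on all arrays: Mmp1a had 3.37, 3.20 and 3.36 in CAF and 3.81, 3.53 and 3.69 in COF and passed as lower at -0.37 (adjusted p = 0.0177), though not without COF replicate 1 or 3 or CAF replicate 2. Mmp1b missed at 0.32 (adjusted p = 0.0629).

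The other secreted MMPs gave 2 further increases. Mmp12, macrophage metalloelastase, read 8.11, 6.95 and 8.06 in CAF and 5.60, 6.67 and 6.16 in COF. CAF replicate 2 was only slightly above COF replicate 2, and the difference was 1.57 ± 0.38, or 2.96-fold (limma, adjusted p = 0.0111). Mmp10, stromelysin-2, read 6.98, 6.83 and 7.33 in CAF and 5.62, 6.22 and 6.15 in COF, without overlap. It was higher in CAF by 1.05 ± 0.19, or 2.07-fold (limma, adjusted p = 0.00298). Mmp3, stromelysin-1, which also activates other MMP precursors, read 13.82, 13.77 and 13.73 in CAF and 13.55, 13.05 and 13.48 in COF. It did not pass, at 0.42 with an interval of -0.72 to 1.55 (limma, adjusted p = 0.594). Mmp11, stromelysin-3, known from the stroma of breast cancers, read 7.91, 7.73 and 7.87 in CAF and 9.95, 7.52 and 9.48 in COF. COF replicate 2 lay at the level of CAF while the other COF arrays were much higher. The difference of -1.15 did not pass (limma, adjusted p = 0.113), and without COF replicate 2 it was -1.88 (adjusted p = 0.000116, against 0.198 to 0.356 without any other array). Matrilysin, Mmp7, did not pass at 0.06, nor did Mmp19 at -0.00 (adjusted p = 0.986), Mmp20 at -0.11 or Mmp23 at 0.90 (adjusted p = 0.096).

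**Figure D2:**
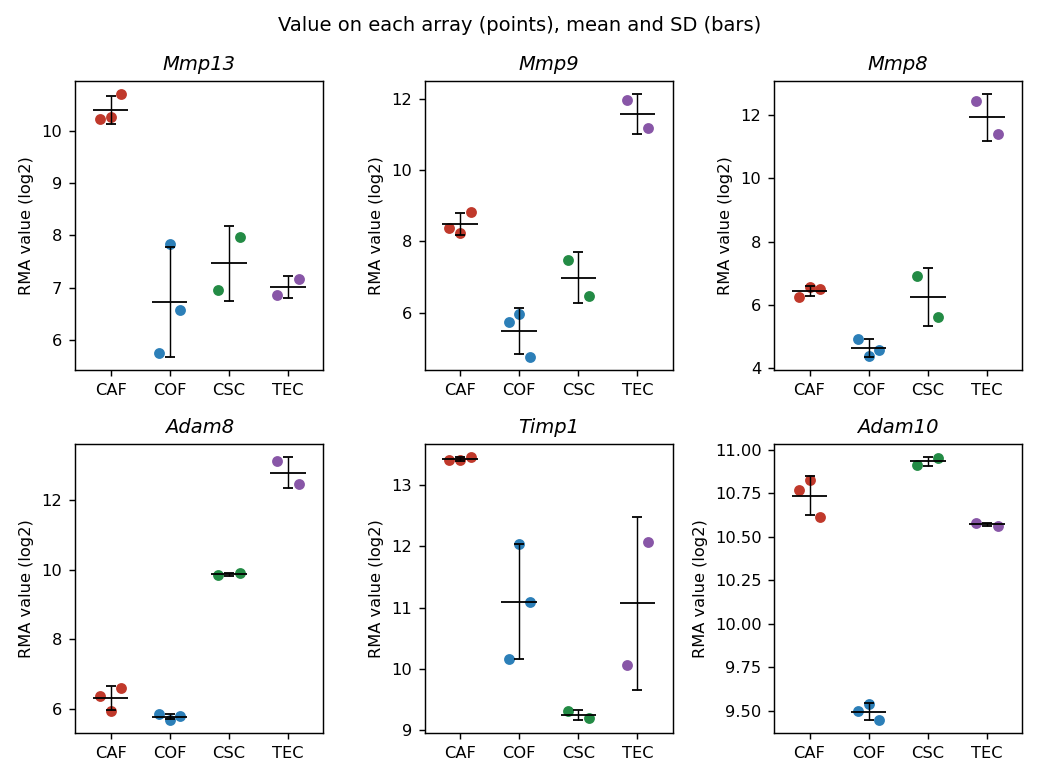
Log2 signal of Mmp13, Mmp9, Mmp8, Adam8, Timp1 and Adam10 on each array, in panels by gene, with points for arrays and the mean and SD per group (3 CAF, 3 COF, 2 CSC and 2 TEC arrays). Mmp13 and Timp1 are highest in CAF, Mmp9, Mmp8 and Adam8 are highest in TEC, and Adam10 is low in COF alone.

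Leukocyte genes moved with these increases. The leukocyte marker median was 7.04, 6.90 and 8.24 in CAF and 5.19 to 6.28 in COF, and 7 of 7 markers passed as higher in CAF. Of 8 macrophage markers 5 passed as higher, with medians of 5.57 to 6.24 in CAF and 5.28 to 5.41 in COF. Of 9 neutrophil markers 4 passed as higher, S100a8, S100a9, Ltf and Camp, with medians of 5.61 to 6.11 in CAF and 5.20 to 5.22 on the COF arrays. The neutrophil receptors Csf3r, at 5.12 to 5.35 in CAF and 5.19 to 5.32 in COF, and Cxcr2, at 5.15 to 5.28 in CAF and 5.14 to 5.22 in COF, were dim in both and did not pass. Epithelial markers were also higher in CAF in 7 of 10 cases, mast cell markers in 3 of 6 (medians of 6.45 to 6.85 in CAF, 5.59 to 5.87 in COF), T and B cell markers in 2 of 5 and pericyte markers in 2 of 6. Adipocyte markers were lower in 2 of 4 and endothelial markers in 1 of 6, and fibroblast markers changed in 0 of 8. The part of these cells in the differences of Mmp8, Mmp9, Mmp12 and Mmp13 was not tested. Without any 1 of the 6 arrays the difference of Mmp13 ran from 3.20 to 4.24, that of Mmp9 from 2.63 to 3.23, that of Mmp8 from 1.68 to 1.95 and that of Mmp12 from 1.29 to 1.95, and each still passed.

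Of the inhibitors, Timp1 and Timp2 passed in opposite directions. Timp1, the inducible inhibitor, read 13.41, 13.41 and 13.46 in CAF and 10.16, 12.04 and 11.09 in COF. The CAF arrays were nearly equal and all above the scattered COF arrays, by 2.33 ± 0.53, or 5.02-fold (limma, adjusted p = 0.00879). Timp2, which also helps Mmp14 to activate the Mmp2 precursor, read 13.01, 12.85 and 12.75 in CAF and 13.94, 13.37 and 13.82 in COF. It was lower in every CAF array, 1.79-fold, at -0.84 ± 0.27 (limma, adjusted p = 0.0387), and with any 1 array left out other than COF replicate 2 it no longer passed (adjusted p 0.0717 to 0.129). Its 5 other probe sets gave -0.15 to -1.23, and 4 of them passed when all probe sets were tested. Timp3, a matrix-bound inhibitor that also blocks ADAM17 and the aggrecanases, read 13, 12.97 and 12.63 in CAF and 12.10, 12.09 and 12.14 in COF. Although its groups did not overlap, 0.76 ± 0.49 did not pass with the spread pooled over all arrays (limma, adjusted p = 0.282). Timp4 lay between 4.88 and 5.25 on all 6 arrays and did not pass at 0.10 (adjusted p = 0.588).

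Membrane-type MMPs act at the cell surface, and Mmp14 among them cuts collagen and activates the Mmp2 precursor. Mmp14 read 12.44, 12.44 and 12.48 in CAF and 12.53, 12.36 and 12.42 in COF. The groups overlapped, and the difference was 0.01 with an interval of -0.55 to 0.58 (limma, adjusted p = 0.977). Mmp16, another activator of the Mmp2 precursor, read 5.34, 5.68 and 5.36 in CAF and 5.92, 6.87 and 6.05 in COF and was lower, at -0.82 (adjusted p = 0.0198), with -1.94 on its other probe set, and without CAF replicate 1 or 3 it no longer passed. Mmp17, anchored in the membrane by a lipid, read 6.27, 6.39 and 6.40 in CAF and 6.77, 7.35 and 6.86 in COF and was lower, at -0.64 (adjusted p = 0.0294), which held without COF replicate 1 but not without any other array. Mmp24, known from the nervous system, did not pass at 0.22 (adjusted p = 0.113).

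Among the ADAMs of somatic tissues 3 of 9 were higher in CAF (18.1% of all genes were) and 1 was lower (16.7% of all genes). Adam10, the sheddase that makes the first cut in Notch receptors and releases E-cadherin, read 10.77, 10.83 and 10.61 in CAF and 9.50, 9.54 and 9.45 in COF. The replicates of each group were close, and the groups were 1.24 ± 0.08 apart, or 2.36-fold (limma, adjusted p = 2.38e-05). Its 2 other probe sets gave 0.99 and -0.03. Adam19, meltrin beta, read 9.81, 9.90 and 9.94 in CAF and 9.13, 8.72 and 8.94 in COF, 1.93-fold higher in CAF (limma, adjusted p = 0.00159). Adam9, a widely expressed sheddase, read 12.01, 12.04 and 11.94 in CAF and 11.22, 11.13 and 11.18 in COF, 1.76-fold higher in CAF (limma, adjusted p = 9.93e-05). Adam33, known from mesenchymal cells, read 7.03, 7.01 and 6.76 in CAF and 7.63, 7.25 and 7.57 in COF, a difference of -0.55 (limma, adjusted p = 0.0104). Adam17, the enzyme that releases TNF and several EGF receptor ligands, differed by -0.09 with an interval of -0.42 to 0.24 (limma, adjusted p = 0.699). Adam12, meltrin alpha, differed by 0.36 (adjusted p = 0.617), with CAF at 10.79, 10.80 and 10.64 and COF at 10.01, 10.85 and 10.28. Adam8, Adam15 and Adam28 did not pass either, and Adam8 missed at 0.52 (adjusted p = 0.0678). None of 13 testis ADAMs passed (limma), against 34.8% of all genes. Of Adam11, Adam22 and Adam23, listed as lacking a catalytic site, none passed either, and Adam23 missed at -0.63 (limma, adjusted p = 0.0632).

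Of the 7 ADAMTS genes 1 was higher in CAF and 1 was lower (28.6% passed, against 34.8% of all genes). Adamts7, known to cut cartilage oligomeric matrix protein, read 7.36, 7.19 and 7.30 in CAF and 6.28, 6.26 and 6.22 in COF. It was 2.04-fold higher in CAF, with tight replicates (limma, adjusted p = 0.000602). Adamts10, associated with fibrillin microfibrils, read 7.55, 7.38 and 7.41 in CAF and 8.16, 7.76 and 7.98 in COF, lower, at -0.52 (limma, adjusted p = 0.00772). None of the 5 proteoglycan-cleaving enzymes passed. Adamts1 read 13.31, 13.29 and 13.26 in CAF and 13.66, 13.65 and 13.72 in COF, and Adamts4 read 10.07, 10.28 and 10.77 in CAF and 11.12, 11.62 and 11.24 in COF. Both were lower on every CAF array, at -0.40 (adjusted p = 0.638) and -0.95 (adjusted p = 0.0713). Adamts5, the main aggrecanase of mouse cartilage, differed by 0.29 (adjusted p = 0.795), Adamts15 by 0.67 (adjusted p = 0.329) and Adamts8 by -0.02. Adamts2 was among the genes to be named and was not measured.

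**Figure D3:**
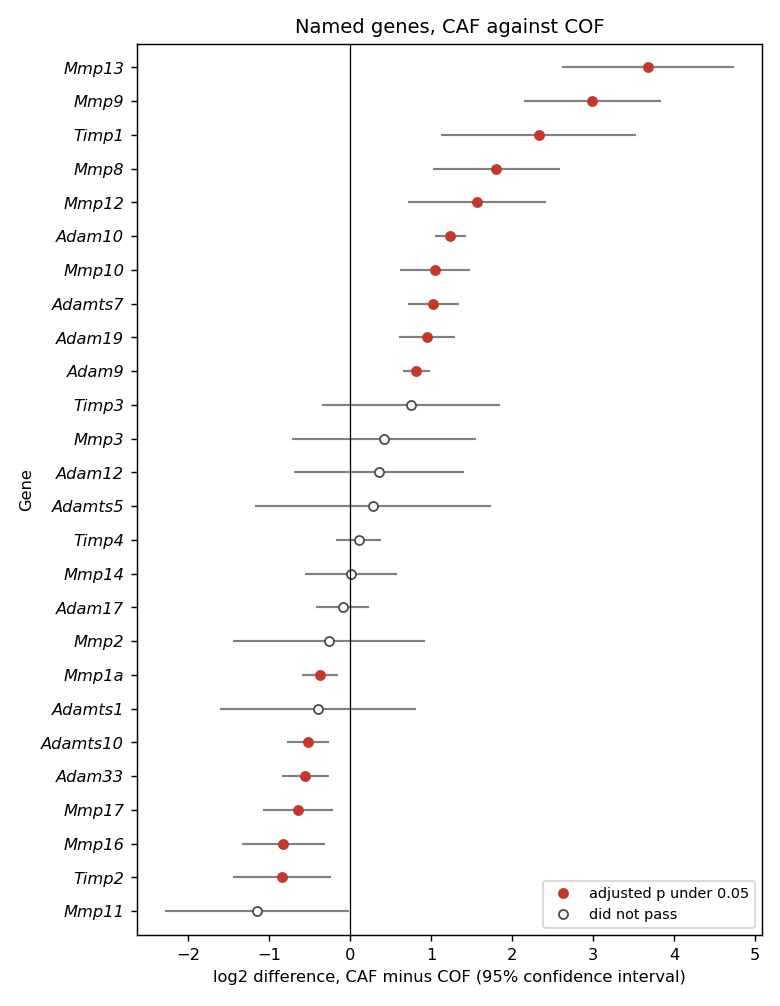
Log2 difference of CAF minus COF for the named members, with 95% confidence intervals from limma; filled points passed at an adjusted p under 0.05 and open points did not. Mmp13 and Mmp9 lie farthest to the right, at 3.68 and 2.99.

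The spread was pooled with that of the TEC arrays, which differed most from each other: the SD of gene-by-gene differences was 0.55 between them and 0.14 to 0.36 between fibroblast arrays of 1 group. With CAF and COF fitted alone, 26 members passed, 17 higher and 9 lower, against 45.9% of all genes, and all 16 above were among them. The 10 added were Mmp3, Mmp23, Mmp24, Mmp1b, Timp3, Adam8 and Adamts15, higher in CAF, and Adam23, Adamts1 and Adamts4, lower in CAF. Their adjusted p-values ran from 0.000129 for Mmp23 through 0.0011 for Timp3 and 0.0019 for Adamts1 to 0.0449 for Mmp1b. At an adjusted p under 0.01 on all arrays, 10 members passed, 9 of them higher, against 21.3% of all genes. Pairs of arrays were unusually close, CAF 1 with 2 and COF 1 with 3, and with each such pair counted as 1 array 9 members passed, all higher in CAF, against 14.6% of all genes. Timp1 was then at an adjusted p of 0.0826 (0.00406 to 0.0321 with 1 array left out), and Timp2, Mmp16, Mmp17, Mmp1a, Adam33 and Adamts10 no longer passed. COF replicate 2 was the COF array nearest to the CAF mean in 10 of the 16 members that passed, and in 70.9% of the 4309 genes that passed.

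CSC and TEC are the other populations sorted from the tumours, and the comparison asks how their proteinase sets differ. Most members did not pass, and most of those that did were lower in CSC: 18 of 54 passed (33.3%), against 46.7% of all genes, with 2 higher (26.6% of all genes) and 16 lower (20.1% of all genes). Mmp8, Mmp9 and Adam8, all known from neutrophils, gave the 3 greatest differences, and Adam19, Adam17, Adam23 and Mmp19 were lower too. Adam10 and Mmp7 were the members higher in CSC. A difference of at least 1 that also passed was found in 9 members, against 19.2% of all genes. The arrays did not overlap in 32 members, against 68.7% of all genes. At an adjusted p under 0.01, 10 members passed, against 33% of all genes. The median difference was -0.30 over the members and 0.00 over all genes.

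Mmp8 read 6.91 and 5.62 in CSC and 12.44 and 11.40 in TEC, 50.4-fold lower in CSC at -5.65 ± 0.43 (limma, adjusted p = 1.84e-05). Mmp9 read 7.48 and 6.48 in CSC and 11.96 and 11.18 in TEC, 24.1-fold lower in CSC at -4.59 ± 0.46 (limma, adjusted p = 6.58e-05). Adam8, a sheddase of granulocytes and other myeloid cells, read 9.84 and 9.91 in CSC and 13.11 and 12.47 in TEC, 7.52-fold lower in CSC (limma, adjusted p = 2.74e-05). In each the CSC arrays lay far below the TEC arrays, and each passed with any 1 array left out. Beside them, 8 of 9 neutrophil markers and 7 of 7 leukocyte markers passed as lower in CSC. The CSC array with less Mmp8 and Mmp9, replicate 2, also had the lower neutrophil median of 7.77. Adam8 was not lower on that array, at 9.91 against 9.84 on CSC replicate 1. Mast cell markers (5 of 6), T and B cell markers (4 of 5) and endothelial markers (4 of 6) were lower in CSC as well. Macrophage markers went the other way, with 4 of 8 higher in CSC, and Mmp12 did not pass at -0.20 (limma, adjusted p = 0.757), with 9.11 and 9.999 in CSC and 9.68 and 9.82 in TEC. The part of these cells in the differences was not tested.

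Adam17 read 9.52 and 9.57 in CSC and 10.84 and 10.21 in TEC, 1.97-fold lower in CSC (limma, adjusted p = 0.0017). Adam10, the related sheddase, ran the other way, at 10.91 and 10.95 in CSC and 10.58 and 10.56 in TEC, a small difference of 0.36 ± 0.10 (limma, adjusted p = 0.0167). Adam19 read 8.36 and 7.80 in CSC and 9.88 and 9.76 in TEC, 3.34-fold lower (limma, adjusted p = 0.000103). Adam23, which lacks catalytic activity and is known as a receptor in neurons, read 5.31 and 5.48 in CSC and 6.73 and 7.71 in TEC, lower, at -1.83 (adjusted p = 0.000727). Adam15 was lower, at -0.61 (adjusted p = 0.00177), and so was Adam9, at -0.34 (adjusted p = 0.0153), and among dim genes Adam11 and Adam2 were lower, at -0.34 and -0.47. Mmp19 read 9.36 and 9.17 in CSC and 10.54 and 10.43 in TEC, 2.33-fold lower (limma, adjusted p = 0.000354). Mmp7, known from glandular epithelium, read 7.08 and 7.06 in CSC and 6.49 and 6.60 in TEC, higher by 0.53 (limma, adjusted p = 0.00353), and 10 of 10 epithelial markers passed as higher in CSC beside it. Adamts10 was lower, at -0.89 (adjusted p = 0.000847), and so was Adamts7, at -0.54 (adjusted p = 0.0264). The calls of Adam10, Adamts7, Adam11 and Adam2 were lost when certain single arrays were left out, CSC replicate 2 in the cases of Adam10, Adamts7 and Adam2. With CSC and TEC fitted alone, Mmp8, Mmp9, Adam8, Adam19, Adam23, Mmp19 and Adamts10 passed. Adam17 (adjusted p = 0.0542), Adam15 (0.0589) and Mmp7 (0.0624) then missed, as did the other members that had passed.

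Some members that were high in fibroblasts read much higher on TEC replicate 2 than on TEC replicate 1, and others did not. Mmp3 read 8.23 and 8.08 in CSC and 8.87 and 11.40 in TEC, Timp1 read 9.31 and 9.20 in CSC and 10.07 and 12.07 in TEC, and Mmp23 read 6.04 and 5.85 in CSC and 6.73 and 8.63 in TEC. All 3 passed as lower in CSC, at -1.98 (adjusted p = 0.0261), -1.82 (adjusted p = 0.0463) and -1.73 (adjusted p = 0.0126) in limma. Without TEC replicate 2 the differences were -0.72, -0.82 and -0.78, and that of Timp1 no longer passed. Without a CSC array Timp1 and Mmp3 no longer passed, and neither did Mmp23 without CSC replicate 2. In Mmp2, Adamts1, Adamts5, Adam12 and Timp3 the TEC arrays were also far apart, by 2.19 in Adam12 to 3.27 in Adamts5, and none passed on the probe set used. Without TEC replicate 1 all 5, and Mmp14, passed as lower in CSC, with differences of -1.16 in Mmp14 to -3.68 in Adamts5. Without TEC replicate 2 the sign of Adamts1 turned, and it passed as higher in CSC at 0.39. Adamts5, for example, read 6.71 and 6.43 in CSC and 6.98 and 10.25 in TEC (limma, adjusted p = 0.0596). When all probe sets were tested, other probe sets of Mmp2, Adamts5 and Mmp14 passed as lower in CSC, at -1.79, -1.56 and -0.78. Those of Adam12 and Timp3 did not pass. In 13 members the TEC arrays differed by at least 1. Mmp11 was not among them, at 4.58 and 4.71 in CSC and 4.99 and 5.10 in TEC. It did not pass at -0.40 (limma, adjusted p = 0.629). Timp2 read 10.38 and 10.33 in CSC and 9.71 and 10.90 in TEC and did not pass at 0.05 (limma, adjusted p = 0.922). Its difference was -0.55 without TEC replicate 1 and 0.64 without TEC replicate 2. Mmp13 and Timp4 did not pass either, at 0.46 and 0.08. In 25 of the 41 members that were higher in CAF than in CSC, TEC replicate 2 was above TEC replicate 1 (61%), against 2247 of the 4145 genes that were (54.2%). Fibroblast markers behaved alike, with 4 of 8 lower in CSC. With CSC and TEC fitted alone the number of members that passed was 7, where 24.3% of all genes passed.

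**Figure D4:**
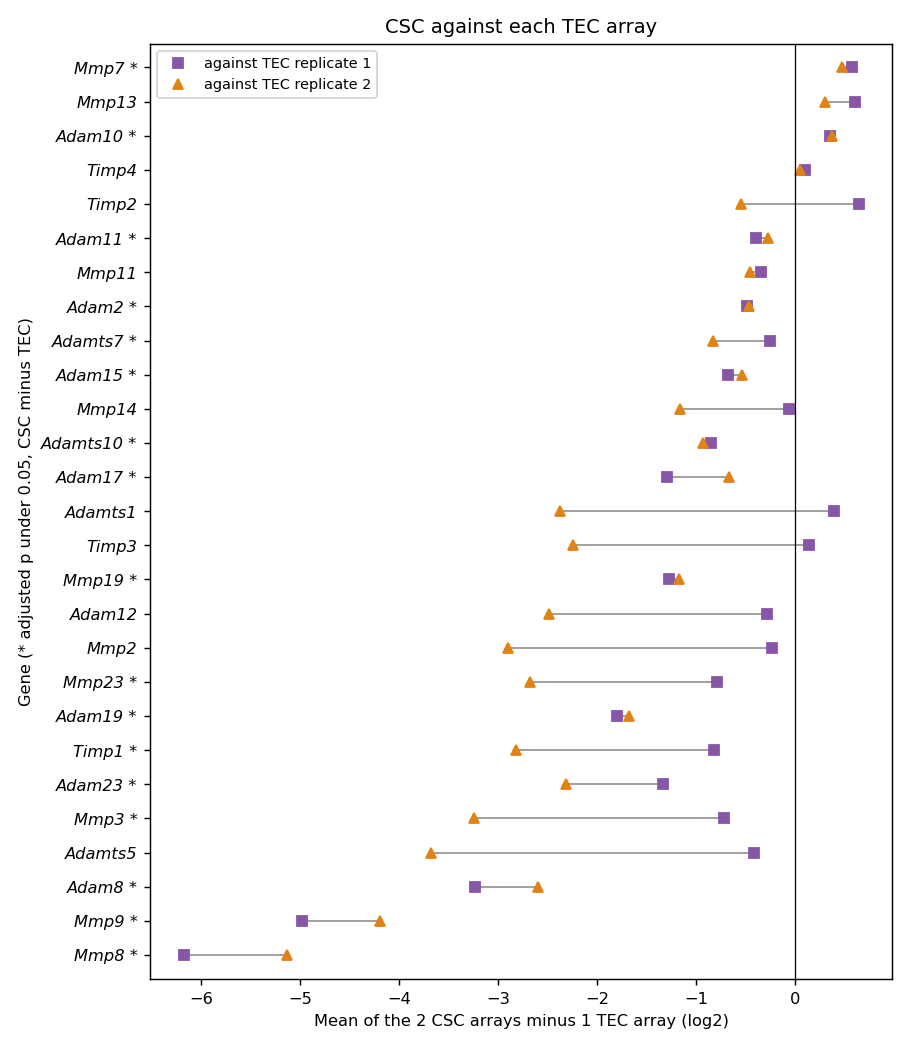
Mean of the 2 CSC arrays minus each TEC array on the log2 scale, with 2 points per member for TEC replicates 1 and 2; an asterisk marks members that passed in limma. Mmp8, Mmp9 and Adam8 are negative against both TEC arrays, whereas Adamts5, Mmp2, Mmp3 and Timp3 lie far below 0 against TEC replicate 2 only.

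The comparison of CAF with CSC sets the stromal population of the tumour beside the one labelled as stem cells. Of the 42 members above the dim mark 32 passed as higher in CAF, among them Adamts5, Mmp3, Mmp2, Mmp23, Timp3, Adamts1, Adam12 and Timp1 by about 18-fold or more. In all, 45 of 54 passed (83.3%), against 66.5% of all genes, with 41 higher in CAF (33.4% of all genes) and 4 lower (33.1% of all genes). A difference of at least 1 that also passed was found in 29 members, against 27.6% of all genes. The arrays did not overlap in 47 members, against 82% of all genes. At an adjusted p under 0.01, 38 members passed, against 53.2% of all genes. The median difference was 0.96 over the members and 0.01 over all genes. Because the CAF arrays are used here and against COF, these comparisons share samples.

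Adamts5 read 12.45, 12.48 and 12.40 in CAF and 6.71 and 6.43 in CSC, 58.7-fold higher in CAF (limma, adjusted p = 9.3e-05). Mmp3 read 13.82, 13.77 and 13.73 in CAF and 8.23 and 8.08 in CSC, 49.2-fold higher (limma, adjusted p = 2.71e-05). Mmp2 read 13.57, 13.51 and 13.54 in CAF and 8.23 on both CSC arrays, 39.6-fold higher (limma, adjusted p = 4.79e-05). Replicates of both groups were close in these genes, and no arrays overlapped. Mmp23 was 31.3-fold higher, Adam12 23.4-fold, Adamts4 14.4-fold, Adamts15 11.7-fold, Mmp14 10.3-fold, Mmp11 9.13-fold and Adam23 9.09-fold, with adjusted p-values of at most 0.000862. Mmp13, at 6.96 and 7.98 in CSC, was 7.63-fold higher in CAF (limma, adjusted p = 0.000949). Mmp9, at 7.48 and 6.48 in CSC, was 2.82-fold higher (adjusted p = 0.0108), but without CSC replicate 2 its adjusted p was 0.111 (as low as 0.00776 without another array). All 7 ADAMTS genes passed as higher in CAF (33.4% of all genes did), among them Adamts1 (25.1-fold) and Adamts7 (4.77-fold).

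Of the inhibitors, Timp3 was 25.3-fold, Timp1 18-fold and Timp2 5.72-fold higher in CAF, each with an adjusted p of at most 0.000239. Timp3 read 8.54 and 7.88, Timp1 9.31 and 9.20 and Timp2 10.38 and 10.33 in CSC, all below every CAF array. Timp4 did not pass, at -0.01 with 5.40 and 5.04 in CSC (adjusted p = 0.937).

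The members lower in CAF were Adam8, Mmp12, Mmp7 and the dim Mmp20. Adam8 read 6.39, 5.93 and 6.61 in CAF and 9.84 and 9.91 in CSC, 11.8-fold lower (limma, adjusted p = 1.37e-06). Mmp12 read 8.11, 6.95 and 8.06 in CAF and 9.11 and 9.999 in CSC, 3.6-fold lower (limma, adjusted p = 0.0038). Mmp7 was lower, at -0.92 (adjusted p = 4.29e-05), with 6.24, 6.20 and 6.02 in CAF and 7.08 and 7.06 in CSC. Beside these, 8 of 8 macrophage, 7 of 7 leukocyte, 8 of 9 neutrophil and 10 of 10 epithelial markers passed as lower in CAF and 8 of 8 fibroblast markers as higher, and their part in the differences was not tested. Adam10 and Adam17, the broadly acting sheddases, did not pass, at -0.20 with CAF at 10.77, 10.83 and 10.61 and CSC at 10.91 and 10.95 (adjusted p = 0.0878), and at -0.04 with CAF at 9.54, 9.46 and 9.53 and CSC at 9.52 and 9.57 (adjusted p = 0.852). Mmp8 did not pass either, at 0.18 (adjusted p = 0.703), although it was 3.5-fold higher in CAF than in COF. The other probe sets of Adam17 gave 0.39 and 0.68, and both passed as higher in CAF when all probe sets were tested. Those of Adam10 did not pass.

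Of 13 testis ADAMs, 7 of them dim on all arrays, 11 passed as higher in CAF, against 33.4% of all genes. Most differed by less than 1, with Adam5 at 1.92 (6.14, 6.04 and 5.98 in CAF and 4.17 and 4.10 in CSC) and Adam24 at 1.004. Over the 1571 genes that lay under the lower quartile on all arrays, the median difference was 0.24 and 50.3% passed, 649 higher and 141 lower in CAF. Of the 12 dim members 10 passed, 9 of them higher. Mmp24 was higher by 0.45 (adjusted p = 0.00443), and its other probe set passed in the opposite direction at -0.43. Without the dimmest 30% of genes 33 members were tested and 29 passed, 26 of them higher in CAF.

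**Figure D5:**
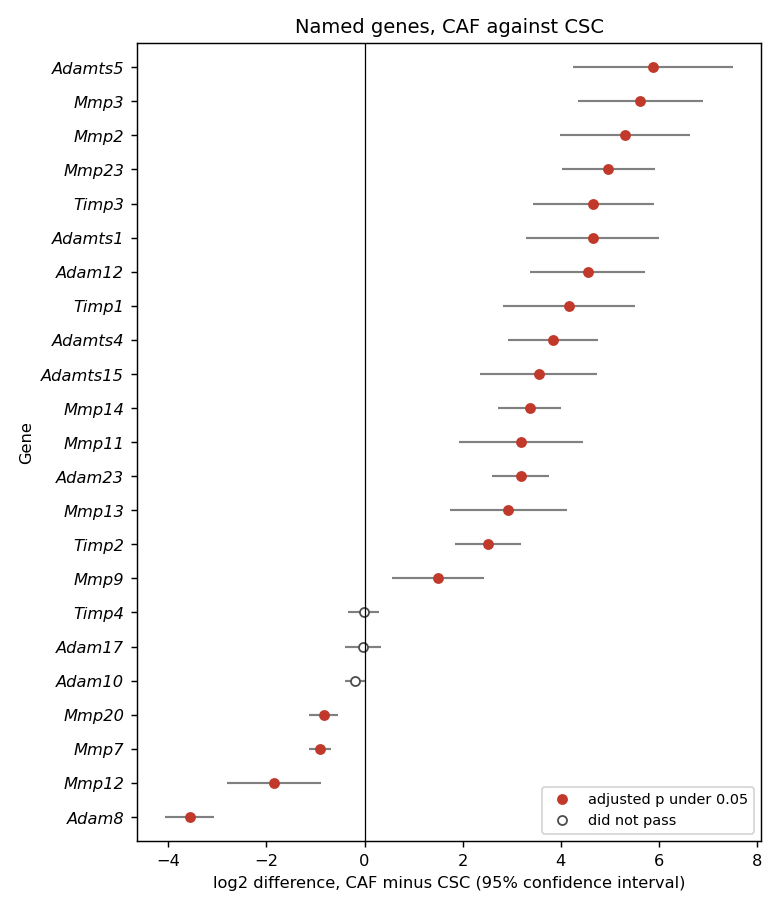
Log2 difference of CAF minus CSC for the named members, with 95% confidence intervals from limma; filled points passed at an adjusted p under 0.05. Adamts5, Mmp3 and Mmp2 are above 5, Timp4, Adam17 and Adam10 did not pass, and Mmp20, Mmp7, Mmp12 and Adam8 are below 0.

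Of 54 members 6 passed in all 3 comparisons, against 13% of all genes: Mmp9, Timp1, Adam9, Adam19, Adamts7 and Adamts10. The 5 that passed in none were Timp4, Adam22, Adam28, Adam1b and Adam26a.

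Genes that activate, localise or bind these enzymes were read from a list of 30, of which 24 were measured. Between CAF and COF 7 passed (29.2%, against 34.8% of all genes), 2 higher and 5 lower. Plau, urokinase, which makes plasmin and so starts MMP activation, read 8.81, 8.83 and 8.86 in CAF and 11.11, 10.12 and 10.90 in COF, lower, at -1.88 (limma, adjusted p = 0.000874). Tspan17, one of the tetraspanins that carry ADAM10 to the surface, was higher by 0.67 (adjusted p = 0.0169), while Papln, papilin, at -0.33 and Rhbdf1, which brings ADAM17 to the surface, at -0.61 were lower. Between CSC and TEC 12 of 24 passed (50%, against 46.7% of all genes), 3 higher and 9 lower. Tspan15, another partner of ADAM10, was higher in CSC by 1.17 (adjusted p = 9.26e-05), whereas thrombospondin 1 (Thbs1), Cd44, which anchors MMP9 at the surface, and the urokinase receptor Plaur were lower, at -1.34, -1.26 and -1.66. Between CAF and CSC 19 of 24 passed (79.2%, against 66.5% of all genes), 15 higher and 4 lower. The membrane-anchored MMP inhibitor Reck read 10.20, 10.24 and 9.82 in CAF and 5.97 and 6.40 in CSC, higher by 3.90 (adjusted p = 1.9e-06), and Lrp1, which takes up MMPs and TIMPs, was higher by 3.15. Tspan14 and Tspan33, further ADAM10 partners, were lower in CAF, at -2.98 and -2.53.

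Of 28 listed substrates 26 were measured. Between CAF and COF 5 passed (19.2%, against 34.8% of all genes), 3 higher and 2 lower. Notch1, a substrate of ADAM10, read 7.35, 7.38 and 7.58 in CAF and 9.65, 9.66 and 9.54 in COF, lower, at -2.18 (limma, adjusted p = 1.4e-05). The proteoglycan Vcan, a substrate of ADAMTS enzymes, was higher by 1.21 (adjusted p = 0.00306), Tnc, tenascin C, by 3.18 (adjusted p = 0.0143) and Cdh1, E-cadherin, by 1.85 (adjusted p = 0.0063). Tnc read 12.86, 12.82 and 13.08 in CAF and was scattered in COF, at 8.06, 11.27 and 9.89. Cdh1 is also among the 10 epithelial markers, of which 7 were higher in CAF than in COF. Between CSC and TEC 12 of 26 passed (46.2%, against 46.7% of all genes), 5 higher and 7 lower, with Vcan at -3.02, Fn1 at -1.72 and Tnfrsf1a at -0.82 lower in CSC and Cx3cl1 at 0.83 higher. Between CAF and CSC 25 of 26 passed (96.2%, against 66.5% of all genes), 19 higher and 6 lower. Vcan was higher in CAF by 5.14 and Fn1, fibronectin, by 3.04, and Cdh1 and Notch1 were lower, at -5.77 and -2.32.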

How the data were processed

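RNA of sorted cells was measured on 10 arrays, grouped by their labels as 3 CAF, 3 COF, 2 CSC and 2 TEC. The deposited log2 signals of 22690 probe sets come from RMA, which the authors ran per the submitters' processing notes, where no version is named. RMA sets all arrays to a shared distribution, so differences are relative to all probe sets. Precision is limited by the number of arrays.

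Probe sets with 1 symbol (20393, against 691 with several and 1606 with none) were used, and each gene was read from the one with the highest mean. The members had 83 probe sets, with more than 1 in 19 members. Of 29 further probe sets, 23 had the sign of the one used between CAF and COF, 23 between CSC and TEC and 24 between CAF and CSC.

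Differences were fitted with limma 3.58.1 in R 4.3.3 (lmFit, eBayes), with group as the only term. Two-sided p-values were adjusted over all 12394 genes (Benjamini-Hochberg), and errors are moderated standard errors. The fit was tested on simulated data.

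The members and the lists of markers, regulators and substrates were chosen with earlier results of these data known. Genes to be named were up to 15 increases and 15 decreases per contrast among members that passed, Timp1 to Timp4 and a set of Mmp, Adam and Adamts genes whatever their values, and up to 4 regulators and 4 substrates with the smallest adjusted p. Other members are accounted for between CAF and COF, singly or by subfamily, and only in part in the other comparisons. Those singled out among them were chosen after their values were seen. Alternatives were the 2 groups of a contrast alone, the replicate number as a block, a mean-variance trend, no dim genes, other probe sets, a second normalization, centring, array weights, a stricter threshold, close arrays averaged, and each array left out.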

Additional observations from a re-analysis of the deposited data

How the results depend on the processing

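The counts of members that passed depended on which arrays set the spread. Percentages in brackets are the shares of all genes that passed under the same setting. For CAF minus COF, 16 (34.8%) became 26 with only the 2 groups fitted (45.9%). The count was 39 with array weights (69.6%), which gave COF replicate 3 a weight of 40.7 and the other arrays 0.25 to 3.61. It was 10 at an adjusted p under 0.01 (21.3%) and 9 with the closest pairs averaged (14.6%). With 1 array left out it was 13 to 16 (24% to 34.8%). For CSC minus TEC, 18 became 7 with only the 2 groups, 10 at an adjusted p under 0.01, and 11 (without CSC replicate 2) to 24 with 1 array left out. Of all genes, 46.7% passed for CSC minus TEC on all arrays, 24.3% with only the 2 groups and 33% at an adjusted p under 0.01. With 1 array left out, CSC or TEC is down to 1 array, so no share is given beside those counts. For CAF minus CSC, 45 (66.5%) became 29 without the dimmest 30% of genes (68.3%), where 33 members were tested. With 1 CAF array left out it was 41 to 44 (59.7% to 61.9%). Under the other settings run, apart from the replicate block and arrays left out for CSC minus TEC, each count stayed within 1.5 times the value reported. Adamts1 in CSC minus TEC ran from -2.37 without TEC replicate 1 to 0.39 without TEC replicate 2 (limma, adjusted p = 0.0213); the cause was not tested.

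Deviations of same-numbered replicates had correlations of 0.13, 0.01 and -0.08 for CAF with COF. The correlations were -0.06 for CSC with TEC, and -0.04 and 0.09 for CAF with CSC. Not every array correlated best with its own number. In groups this small the deviations of arrays are tied to each other. The correlations therefore cannot decide whether same-numbered arrays share more than a number. With the replicate number as a block, 25 members passed for CAF minus COF, against 42.8% of all genes. For CSC minus TEC it was 6 members (14.8% of all genes), and for CAF minus CSC 44 (62.9% of all genes).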
